A study of Mus musculus with 8 samples.

Results

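The genes described here copy the genome and supply that work. They are 32 mouse genes of DNA replication and S phase, chosen by name: Mcm2 to Mcm7, Mcm10, Cdc6, Cdt1, Cdc45, Gins2, Pola1, Prim1, Pcna, Rfc2, Rfc4, Fen1, Lig1, Rrm1, Rrm2, Tyms, Tk1, Uhrf1, Slbp, Chaf1b, Ung, Ccne1, Ccne2, E2f1, E2f2, E2f7 and E2f8. They held 43 of the 55681 probes on each array, and 31 of them were among the 19709 genes and other features tested. The arrays came from MAM326, a cell line of mouse mammary cancer, which fluorescence-activated sorting had split into GFP-positive and GFP-negative cells 2 days after the cells were seeded. The series was set up to describe a mammary cancer stem cell population. It has 4 one-colour Agilent arrays of each fraction, from 4 experiments with cells of different passages. Both fractions are the same line in the same serum-containing medium, and the labels name no treatment. They do not name the promoter or construct behind GFP. Nor do they tie an array to an experiment, so every p-value measures only how far these 8 arrays scatter.

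Before a cell copies its DNA, origins are licensed: the origin recognition complex, Cdc6 and Cdt1 load the ring-shaped Mcm2-7 helicase onto them. In S phase Cdc45 and the GINS complex join that ring and Mcm10 helps to set it moving, after which primase, polymerases, the PCNA clamp and its loader copy both strands. Most of these genes are transcribed late in G1 and in S phase by E2F factors once cyclin-dependent kinases have released them from the RB family, so their mRNAs are widely used as a mark of cycling cells, in mammary tumours as elsewhere.

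Signal was read as the log2 level of a probe relative to the 75th percentile of its array, so that 0 is that percentile. A gene is represented by its brightest probe, and levels of different genes are not compared. On each array 45.1% to 57.4% of the probes were well above background and 0 spots were saturated. All 7 markers of mammary epithelium were measured on every array, with a mean level of 2.94 to 3.76 in GFP-negative and of 3.46 to 4.20 in GFP-positive cells, and 0 of the 7 passed the test. Of 8 fibroblast markers 7 were measured, collagens among them, with a mean level of -0.78 to 2.06 in GFP-negative and of -2.30 to 0.91 in GFP-positive cells and 0 past the test, while Lum was not well above background on any array. Of 8 leukocyte markers 4 were measured, with a mean level of 0.22 to 0.63 against 0.59 to 0.91. Cd68 was higher in GFP-positive cells by 1.00 (adjusted p = 0.00436), while Csf1r (0.29), Itgam (0.03) and Fcer1g (-0.06) did not pass the test. Csf1r and Itgam were well above background on all 8 arrays. Their mean levels were 3.03 and 2.55 in GFP-negative and 3.32 and 2.57 in GFP-positive cells. Lyz2 was well above background on 0 arrays, and Ptprc, Adgre1 and Tyrobp were so on 1 each. Of 7 endothelial markers 2 were tested, Kdr (well above background on 8 arrays) and Pecam1 (on 6), with a mean level of -1.01 to -0.61 against -0.99 to -0.66 and 0 past the test. Vwf was well above background on 1 array, and Cdh5, Tek, Emcn and Cldn5 on 0. The part of other cells in the results below was not tested.

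A small number of the replication genes were lower in GFP-positive cells. Of the 31 tested (2.56% of all features passed in either direction), 3 fell and 0 rose at an adjusted p under 0.05 (limma, Benjamini-Hochberg over all features): Mcm10, Cdc6 and E2f8, by 0.52, 0.51 and 0.37 on the log2 scale. Among all features 0.741% were called lower and 1.82% higher, 146 and 359 features. At an unadjusted p under 0.05, 12 of the 31 members were lower and 0 higher, against 15.1% and 7.83% of all features. The same numbers, 12 lower and 0 higher, had GFP-positive arrays that did not overlap the GFP-negative ones, against 11.6% and 5.07% of all features. The median difference was -0.18 for the 31 genes and -0.06 for all features, and 27 of the 31 differences were below 0, against 60.7% of all features. Fitted probe by probe over all 27590 kept probes, 1 of the 41 member probes was called lower, that of Mcm10, against 0.478% of all. In sorted bulk RNA, fewer cells in S phase and less of each mRNA per cell cannot be told apart.

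**Figure D1:**
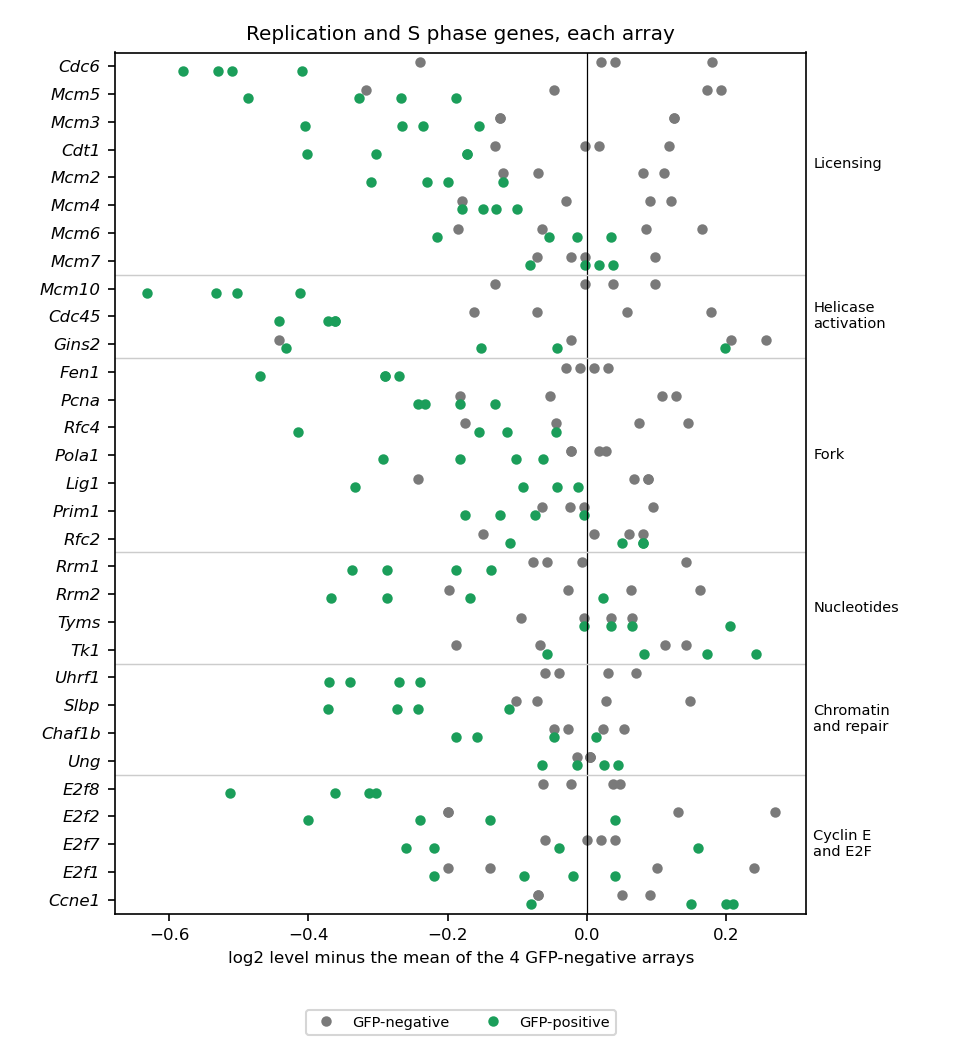
Log2 level of each of 31 replication and S phase genes on each array, minus the mean of the 4 GFP-negative arrays (horizontal axis), with genes grouped by role. Grey points are GFP-negative and green points GFP-positive arrays. The green points of Cdc6, Mcm10, Cdc45, Fen1, Uhrf1 and E2f8 lie wholly to the left of the grey ones, and those of Mcm7 and Rfc2 overlap the grey ones.

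These counts and medians depended on how the arrays were set to one scale. After quantile normalization, which gives all arrays one distribution of signal, the median difference was -0.07 against -0.03 for all features. Then 20 differences were below 0 and 11 above, and Mcm10 alone was called lower, with 0 members higher (0.416% of all features were lower and 2.13% passed in either direction). At an unadjusted p under 0.05, 6 members were lower and 2 higher under that scaling, against 10.7% and 8.66% of all features. Groups did not overlap for 6 members that were lower and 1 that was higher, against 7.6% and 5.82%. Scaling to the 75th percentile of only the probes detected on all 8 arrays also left Mcm10 as the single call (0.325% of all features were called lower), with a median difference of -0.11 against 0.01. The split of all calls moved as well, from 146 lower and 359 higher to 82 and 337 with quantile normalization and 64 and 462 with the percentile of detected probes.

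**Figure D2:**
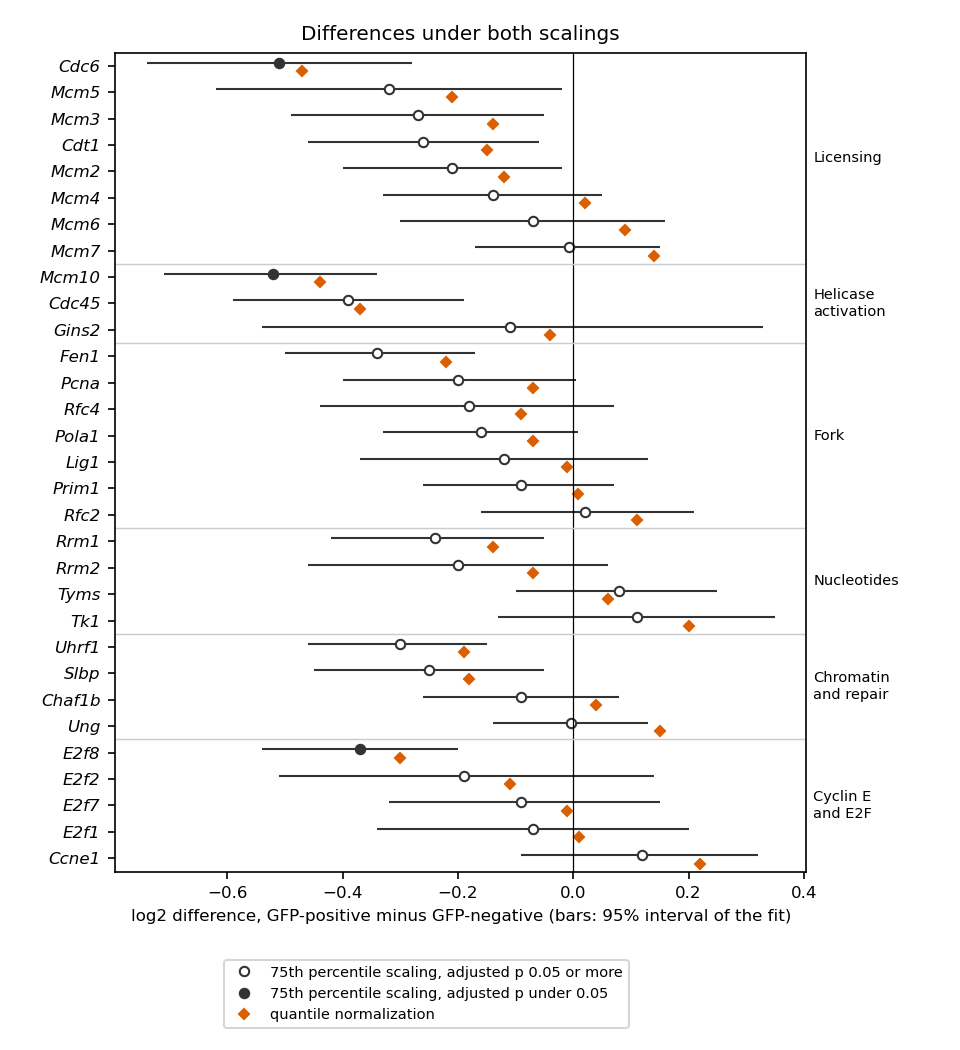
Difference between GFP-positive and GFP-negative cells for each gene, in log2 units (horizontal axis), by role. Circles with 95% intervals of the fit are from 75th percentile scaling, filled at an adjusted p under 0.05, and diamonds are from quantile normalization. Only Mcm10, Cdc6 and E2f8 have filled circles, and every diamond but that of Tyms lies to the right of its circle, past 0 for Mcm4, Mcm6, Mcm7, Prim1, Ung, Chaf1b and E2f1.

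Bright probes in general also had differences below 0. Of the 31 members 28 had a mean level of 2 or more, as did 7109 features. The median difference of those 28 was -0.17 and that of the 7109 features -0.12, and 10 of the 28 were lower at an unadjusted p under 0.05 against 25.6% of the features. With quantile normalization the medians were -0.07 and -0.02. In the brightest class, over a level of 6, the 8 members (Mcm3, Mcm4, Mcm6, Mcm7, Pcna, Rrm2, Chaf1b and Ung) had a median of -0.12, against -0.15 for all 1378 features there. The 2 members between 0 and 2, Cdc6 and Cdc45, had a median of -0.45, against -0.05 for 3585 features.

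**Figure D3:**
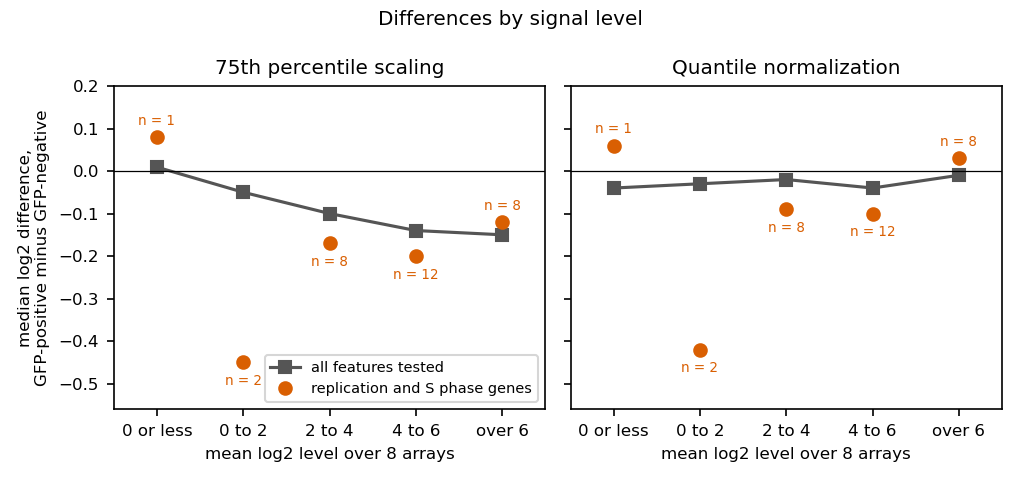
Median log2 difference, GFP-positive minus GFP-negative (vertical axis), by mean signal level over the 8 arrays (horizontal axis), with 75th percentile scaling on the left and quantile normalization on the right. Grey squares are all features and orange points the replication and S phase genes, with their number. With 75th percentile scaling the grey line runs from 0.0091 in the dimmest class to -0.15 in the brightest, and the members in the brightest class lie above it.

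Array by array, the mean over the 31 genes was 4.45, 4.62, 4.54 and 4.62 in replicates 1 to 4 of the GFP-negative cells and 4.40, 4.42, 4.34 and 4.38 in those of the GFP-positive cells. All GFP-positive means were below all GFP-negative ones. GFP-negative replicate 1 was the lowest of its group for 22 of the 31 genes. GFP-positive replicate 3 was the lowest of its group for 17 and the lowest of all 8 arrays for 14. These arrays also had the lowest mean of the fibroblast markers in their groups, -0.78 and -2.30, and the highest mean of the mammary epithelium markers, 3.76 and 4.20. The part of that in the members' values was not tested. After quantile normalization the means were 13.36, 13.56, 13.50 and 13.53 in GFP-negative and 13.44, 13.39, 13.42 and 13.41 in GFP-positive cells, and GFP-negative replicate 1 was then the lowest of all, so the groups overlapped.

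**Figure D4:**
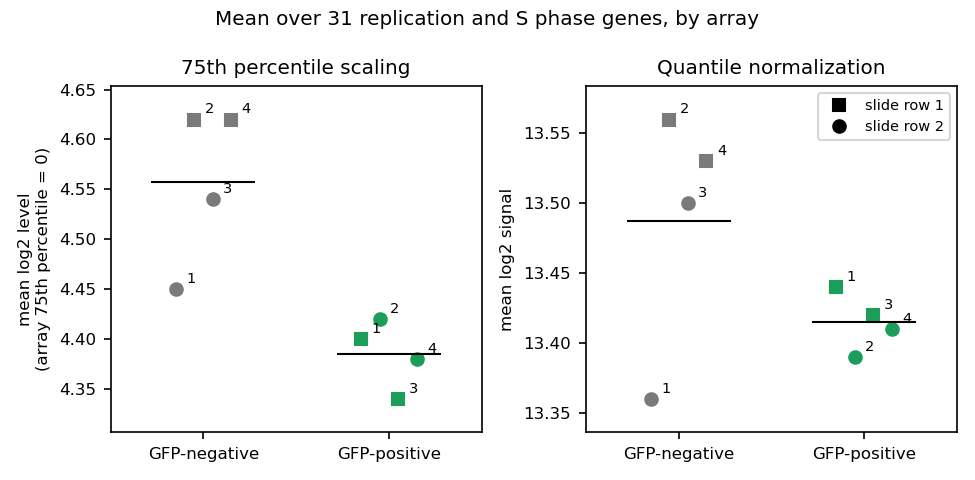
Mean log2 value over the 31 genes on each array (points, numbered by replicate), for 75th percentile scaling on the left and quantile normalization on the right. Lines are group means, and squares and circles mark slide rows 1 and 2. The groups are apart on the left (4.34 to 4.42 against 4.45 to 4.62), and GFP-negative replicate 1 lies below every GFP-positive array on the right.

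Promoters are shown for the genes that fell and for the E2F genes, to let a reader see whether they carry the short motif that E2F proteins bind. The sequences are from RefSeq on GRCm38.p6, cover 250 bases before to 50 bases after the transcript's start, and run 5′ to 3′ along the gene's strand. Capitals mark the E2F core, searched on both strands as TTNNCGC with C or G at each N. The first of the windows of E2f2 is printed, and Mcm6 was added after its matches were seen because it has the most.
Mcm10 (chr2:5012742-5013041, minus strand): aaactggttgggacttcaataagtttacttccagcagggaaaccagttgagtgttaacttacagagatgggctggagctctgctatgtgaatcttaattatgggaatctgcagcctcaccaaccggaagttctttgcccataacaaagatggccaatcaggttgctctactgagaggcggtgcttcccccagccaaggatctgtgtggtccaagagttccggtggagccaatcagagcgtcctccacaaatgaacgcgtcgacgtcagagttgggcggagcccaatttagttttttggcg
Cdc6 (chr11:98907901-98908200, plus strand): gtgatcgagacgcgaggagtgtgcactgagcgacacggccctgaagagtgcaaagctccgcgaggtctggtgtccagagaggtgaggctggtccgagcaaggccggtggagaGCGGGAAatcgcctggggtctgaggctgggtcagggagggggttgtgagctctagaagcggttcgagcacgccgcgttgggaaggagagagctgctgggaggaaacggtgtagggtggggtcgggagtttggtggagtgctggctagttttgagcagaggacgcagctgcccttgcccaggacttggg
E2f8 (chr7:48881547-48881846, minus strand): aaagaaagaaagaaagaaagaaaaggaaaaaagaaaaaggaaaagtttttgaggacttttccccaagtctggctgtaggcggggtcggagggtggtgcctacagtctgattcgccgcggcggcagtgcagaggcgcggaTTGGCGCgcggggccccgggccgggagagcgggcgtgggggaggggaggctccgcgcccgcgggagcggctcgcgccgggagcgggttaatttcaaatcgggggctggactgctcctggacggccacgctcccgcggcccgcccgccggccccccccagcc
E2f1 (chr2:154569377-154569676, minus strand): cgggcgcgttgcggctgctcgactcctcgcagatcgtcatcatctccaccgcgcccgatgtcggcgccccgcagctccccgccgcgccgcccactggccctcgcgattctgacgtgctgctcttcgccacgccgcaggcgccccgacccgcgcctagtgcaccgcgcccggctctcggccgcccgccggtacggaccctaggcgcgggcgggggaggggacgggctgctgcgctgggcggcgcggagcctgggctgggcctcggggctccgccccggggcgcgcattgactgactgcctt
E2f2 (chr4:136172024-136172323, plus strand): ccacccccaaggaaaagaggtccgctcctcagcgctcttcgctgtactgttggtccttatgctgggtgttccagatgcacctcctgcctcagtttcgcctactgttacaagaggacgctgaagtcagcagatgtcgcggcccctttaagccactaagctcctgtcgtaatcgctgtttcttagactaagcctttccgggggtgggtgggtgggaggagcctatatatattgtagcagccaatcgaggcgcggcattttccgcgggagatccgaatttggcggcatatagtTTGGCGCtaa
E2f7 (chr10:110745189-110745488, plus strand): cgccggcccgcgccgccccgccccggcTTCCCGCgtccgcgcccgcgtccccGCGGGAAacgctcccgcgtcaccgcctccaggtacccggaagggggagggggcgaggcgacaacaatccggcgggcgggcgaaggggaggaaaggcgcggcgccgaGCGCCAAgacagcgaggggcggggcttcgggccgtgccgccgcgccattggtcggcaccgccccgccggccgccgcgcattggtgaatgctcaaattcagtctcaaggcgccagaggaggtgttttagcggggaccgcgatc
Mcm6 (chr1:128359656-128359955, minus strand): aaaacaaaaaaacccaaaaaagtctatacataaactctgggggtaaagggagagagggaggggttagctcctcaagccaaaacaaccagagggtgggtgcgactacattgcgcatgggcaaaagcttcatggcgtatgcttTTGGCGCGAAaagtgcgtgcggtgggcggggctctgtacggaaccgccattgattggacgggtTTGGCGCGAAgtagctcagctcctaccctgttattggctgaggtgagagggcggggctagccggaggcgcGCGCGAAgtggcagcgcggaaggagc

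The windows of Mcm10 and E2f1 hold no E2F core in these letters. Those of Cdc6, E2f8 and E2f2 hold 1 match each and that of E2f7 holds 3. That of Mcm6 holds 5, in which the first and second, and the third and the fourth, overlap as one run on opposite strands. The Mcm10 window ends in ttggcg, the core TTGGCGC without its last letter, so a core cut by the window's end would be missed. The E2f1 window begins in letters that read as coding sequence, so it does not show the sequence before the gene's coding part. For both genes the sequence outside the window was not searched. Of the 32 members 28 had a window and 34 windows in all, with Ccne2, Gins2, Mcm4 and Rfc2 not in the table. An E2F core was in 21 of the 34 windows (61.8%) and in 9.57% of all 32851 windows. The CCAAT box (CCAAT, both strands), bound by NF-Y, was in 58.8% against 37.4%, and the CHR element (TTTGAA, both strands), bound by the DREAM and MuvB complexes, in 14.7% against 17.9%. Members' windows were richer in G and C, with a median of 59.8% against 52.7%, and the E2F core itself is rich in both. The 18 genes with an E2F core in a window had a median difference of -0.20, with 8 of them lower at an unadjusted p under 0.05. The 10 with none in their windows, Mcm10 and E2f1 among them, had a median of -0.14, with 4 lower. Of all features 15.1% were lower. With quantile normalization the medians were -0.10 and -0.03. Genes on both sides of that division were among the lower ones. The 17 genes with a CCAAT box had a median of -0.21, with 9 lower, and the 11 without one -0.09, with 3 lower. For the CHR element the medians were -0.34 in 5 genes, with 4 lower, and -0.16 in 23, with 8 lower. With quantile normalization these medians were -0.12 and 0.01 for the CCAAT box and -0.22 and -0.07 for the CHR element. Whether genes with and without a motif differed was not tested. A match of letters describes the sequence and does not show that a factor binds there.

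Helicase activation held the largest difference. Mcm10, which helps to turn the loaded helicase into a moving one and stabilises polymerase alpha, stood at 4.01, 4.24, 4.18 and 4.14 in GFP-negative and at 3.61, 3.64, 3.51 and 3.73 in GFP-positive cells. Its highest GFP-positive array was 0.28 below its lowest GFP-negative array. The level fell by 0.52 ± 0.08 (SE), a 1.44-fold lower signal, with an adjusted p of 0.019 (limma). The probe lies at chr2:4911785-4911844 on mm9, and which exon or untranslated region each probe lies in was not analysed here. The sign of Mcm10 was the same under all 20 alternatives, and it was called in 11 of them. It lost the call when any of 5 arrays was left out: GFP-negative replicate 2 (adjusted p = 0.0609), 3 (0.0631) or 4 (0.0654), or GFP-positive replicate 1 (0.0828) or 3 (0.0513). The differences in those fits were -0.49 to -0.52.

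Cdc45, a subunit of the active helicase, stood at 0.93, 1.27, 1.15 and 1.02 in GFP-negative and at 0.73, 0.72, 0.73 and 0.65 in GFP-positive cells. The groups did not overlap and the GFP-positive arrays lay close together, but the difference of -0.39 ± 0.09 missed the threshold (adjusted p = 0.0588). With quantile normalization it was -0.37 (adjusted p = 0.0768). Gins2, a subunit of the GINS complex, was 2.34, 3.04, 2.76 and 2.99 in GFP-negative and 2.63, 2.74, 2.35 and 2.98 in GFP-positive cells. It had the widest spread of all members, with an SD within groups of 0.29, and its difference of -0.11 ± 0.19 had an interval of -0.54 to 0.33.

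Of the 8 licensing genes 1 fell, Cdc6. Cdc6 loads the Mcm2-7 ring together with the origin recognition complex, and its brightest probe (chr11:98782986-98783045, mm9) stood at 1.65, 2.07, 1.93 and 1.91 in GFP-negative and at 1.31, 1.36, 1.38 and 1.48 in GFP-positive cells. The groups did not overlap, with GFP-negative replicate 1 the nearest to the GFP-positive arrays. The level fell by 0.51 ± 0.10, or 1.42-fold (adjusted p = 0.043). A second Cdc6 probe gave 0.23, 0.90, 0.53 and 0.50 against 0.53, 0.20, 0.23 and 0.44, groups that overlapped, and a difference of -0.19 ± 0.15. The mean of both probes differed by -0.35 (adjusted p = 0.137). Leaving out an array ended the call of the brightest probe in 7 of 8 fits, in all but the one without GFP-negative replicate 1, with adjusted p-values of up to 0.148, and quantile normalization gave -0.47 (adjusted p = 0.0638).

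Cdt1, the other loading factor, stood at 5.73, 5.88, 5.86 and 5.98 in GFP-negative and at 5.69, 5.69, 5.56 and 5.46 in GFP-positive cells. These groups were apart by 0.04 and the difference was -0.26 ± 0.09 (adjusted p = 0.13). The 6 subunits of the helicase ring had differences from -0.32 to -0.0065. Mcm5 had -0.32 ± 0.13, Mcm3 -0.27 ± 0.09 and Mcm2 -0.21 ± 0.08, each lower at an unadjusted p under 0.05 and none past the threshold. Mcm4 had -0.14 ± 0.08, Mcm6 -0.07 ± 0.10 and Mcm7 -0.0065 ± 0.07, all with intervals that held 0. Whether the subunits differed from each other was not tested.

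Mcm5 shows how much 1 array weighs in these small differences. Its GFP-negative levels were 5.20, 5.69, 5.47 and 5.71 and its GFP-positive levels 5.25, 5.33, 5.03 and 5.19, so GFP-negative replicate 1 lay among the GFP-positive arrays. Mcm7, in contrast, had 6.55, 6.72, 6.62 and 6.60 in GFP-negative and 6.62, 6.64, 6.54 and 6.66 in GFP-positive cells, with full overlap and an interval of -0.17 to 0.15. Mcm2 and Mcm3 did not overlap, but the gap between groups was 0.00062 for Mcm2 and 0.04 for Mcm3. A second Mcm3 probe gave -0.32 ± 0.10, close to the first, although its groups overlapped. With quantile normalization Mcm4, Mcm6 and Mcm7 had differences above 0, of 0.02, 0.09 and 0.14.

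At the replication fork 0 of 7 genes passed the threshold and 1 was lower at an unadjusted p under 0.05, or 14.3%, near the 15.1% of all features. That was Fen1, the flap endonuclease that trims Okazaki fragments. It stood at 5.84, 5.82, 5.86 and 5.80 in GFP-negative cells, a range of 0.07, and at 5.54, 5.56, 5.54 and 5.36 in GFP-positive cells. The groups lay 0.24 apart and the difference was -0.34 ± 0.07, just short of the threshold (adjusted p = 0.0517). With quantile normalization it was -0.22 (adjusted p = 0.167).

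Pola1, the catalytic subunit of polymerase alpha, had levels of 3.65, 3.70, 3.65 and 3.69 in GFP-negative and of 3.61, 3.57, 3.38 and 3.49 in GFP-positive cells, without overlap. Its difference was -0.16 ± 0.07 (adjusted p = 0.234). Pcna, the sliding clamp, stood at 6.03, 6.34, 6.16 and 6.32 against 6.03, 6.08, 5.98 and 5.97, where GFP-negative replicate 1 met the GFP-positive range, and differed by -0.20 ± 0.09 (adjusted p = 0.226). Lig1, the ligase that seals Okazaki fragments, had -0.12 ± 0.11, and Prim1, the catalytic primase subunit, -0.09 ± 0.07. The clamp loader subunits were not alike in value: Rfc4 had -0.18 ± 0.11, with -0.15 at a second probe, and Rfc2 had 0.02 ± 0.08. All of these intervals held 0.

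Genes of deoxynucleotide supply had differences on both sides of 0. The large and small subunits of ribonucleotide reductase, the enzyme that makes deoxynucleotides, had -0.24 ± 0.08 for Rrm1 (adjusted p = 0.138) and -0.20 ± 0.11 for Rrm2 (adjusted p = 0.324). Rrm1 stood at 5.23, 5.28, 5.21 and 5.43 in GFP-negative and at 5.00, 5.15, 5.10 and 4.95 in GFP-positive cells, without overlap. Rrm2 overlapped, since GFP-positive replicate 3 was at 6.22 and GFP-negative replicate 2 at 6.17. Tyms, thymidylate synthase, stood at -0.29, -0.25, -0.38 and -0.22 in GFP-negative and at -0.22, -0.29, -0.08 and -0.25 in GFP-positive cells. It differed by 0.08 ± 0.07.

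Tk1, which salvages thymidine, stood at 4.68, 5.01, 4.80 and 4.98 in GFP-negative and at 5.11, 4.95, 4.81 and 5.04 in GFP-positive cells. The groups overlapped, with GFP-positive replicate 1 the highest array. The difference was 0.11 ± 0.10, with an interval of -0.13 to 0.35. Another Tk1 probe gave 0.20 ± 0.09 (adjusted p = 0.239), and one more was well above background on 3 of 8 arrays and was not tested. Tyms and Tk1 were thus 2 of the 4 members above 0, along with Rfc2 and Ccne1, all with intervals that held 0. With quantile normalization 11 members were above 0.

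Of the 4 chromatin and repair genes 0 passed. Uhrf1, which binds hemimethylated DNA behind the fork and brings in DNA methyltransferase, stood at 6.04, 6.17, 6.06 and 6.13 in GFP-negative and at 5.76, 5.83, 5.73 and 5.86 in GFP-positive cells. The groups were 0.18 apart and among the tightest of all members, and the difference was -0.30 ± 0.07 (adjusted p = 0.0575). A second, much dimmer Uhrf1 probe, with a mean level of -0.27 in GFP-negative and -0.44 in GFP-positive cells, gave -0.17 ± 0.12, with overlap. With quantile normalization the first had -0.19 (adjusted p = 0.15).

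Slbp, which binds the stem-loop of histone mRNAs, had levels of 2.67, 2.80, 2.92 and 2.70 against 2.50, 2.53, 2.66 and 2.40, a gap of 0.0085, and differed by -0.25 ± 0.09 (adjusted p = 0.145). Its second probe had -0.22 ± 0.10. Chaf1b, a subunit of the histone chaperone CAF-1, had -0.09 ± 0.07, and its other probes -0.01 and -0.14. The probe with -0.14 was dim, with a mean level of -4.19 in GFP-negative and -4.33 in GFP-positive cells. It was well above background on 3 GFP-negative and 2 GFP-positive arrays. Ung, the glycosylase that removes uracil from DNA, was the least changed in value, at 6.41, 6.41, 6.41 and 6.39 in GFP-negative and 6.43, 6.45, 6.34 and 6.39 in GFP-positive cells, with an interval of -0.14 to 0.13. With quantile normalization Ung had 0.15, so a flat value here depends on the scaling.

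Among the regulators, E2f8 fell. E2f8 and E2f7 are atypical E2F proteins that repress E2F target genes, while E2f1 and E2f2 activate them. E2f8 (probe at chr7:56121860-56121919, mm9) stood at 2.48, 2.52, 2.58 and 2.59 in GFP-negative and at 2.24, 2.18, 2.03 and 2.23 in GFP-positive cells. The groups lay 0.24 apart. The level fell by 0.37 ± 0.07, or 1.29-fold (adjusted p = 0.0462). That call ended in every fit that left out 1 of the 8 arrays, with adjusted p-values of 0.0703 to 0.131, and with quantile normalization (-0.30, adjusted p = 0.0793).

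E2f7 stood at 2.64, 2.54, 2.60 and 2.62 in GFP-negative cells and at 2.56, 2.34, 2.76 and 2.38 in GFP-positive cells, and GFP-positive replicate 3 was above all GFP-negative arrays. Its difference was -0.09 ± 0.10. A second, much dimmer E2f7 probe, with a mean level of -2.12 in GFP-negative and -2.43 in GFP-positive cells, gave -0.31 ± 0.11 (adjusted p = 0.163). The E2f7 probes were thus not alike in value. E2f1 had -0.07 ± 0.12 and E2f2 -0.19 ± 0.14. E2f2 stood at 2.93, 2.60, 3.07 and 2.60 in GFP-negative and at 2.66, 2.56, 2.84 and 2.40 in GFP-positive cells, with replicates 1 and 3 above 2 and 4 in both. None of these passed the test.

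Ccne1, the cyclin that drives entry into S phase with Cdk2, had the largest difference above 0. It stood at 4.43, 4.31, 4.31 and 4.47 in GFP-negative and at 4.58, 4.53, 4.59 and 4.30 in GFP-positive cells. GFP-positive replicate 4 was the lowest of all 8 arrays and the other GFP-positive arrays the highest. The difference was 0.12 ± 0.09 (adjusted p = 0.461), and 0.22 under quantile normalization (adjusted p = 0.228). A second, much dimmer probe, with a mean level of -0.5 in GFP-negative and -0.36 in GFP-positive cells, gave 0.14 ± 0.15, with overlap. Ccne2, the related cyclin E2, has 1 probe, which was not well above background on any of the 8 arrays and was not tested.

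Values of these differences were not alike in the 2 rows of the slide. All arrays lay on 1 slide, and its row 1 held replicates 2 and 4 of the GFP-negative cells with 1 and 3 of the GFP-positive cells, row 2 the rest. Within row 1 the median difference of the 31 genes was -0.27 against -0.06 for all features, with 27 below 0 and 10 lower at an unadjusted p under 0.05 (14.4% of all features were). Within row 2 it was -0.07 against -0.06, with 19 below 0 and 4 lower (5.16% of all features). Mcm10 had -0.63 and -0.41 in rows 1 and 2, Cdc6 -0.65 and -0.37, E2f8 -0.42 and -0.32, Cdc45 -0.42 and -0.36, Fen1 -0.27 and -0.40, and Uhrf1 -0.40 and -0.21. Mcm5 had -0.56 and -0.07, Gins2 -0.53 and 0.31, and E2f2 0.15 and -0.52. So those 6 genes were below 0 in both rows, and so were other members, among them Cdt1 (-0.30 and -0.22) and Slbp (-0.17 and -0.33). The 6 had the lowest adjusted p-values of the 31 genes in the fit of the same arrays. Their common sign in both rows is therefore partly built in. Mcm5 was near 0 in row 2, and Gins2, E2f2 and further members changed sign. The fibroblast markers differed by a median of -3.05 in row 1, where 1 of 7 was called lower, and of 0.41 in row 2, where 0 were called. The mammary epithelium markers differed by a median of 1.19 in row 1, where 6 of 7 were called higher, and of -0.21 in row 2, where 0 were called. In both groups the 2 rows were also apart in the mean level of each of these marker sets, but in opposite directions. Fibroblast means in rows 1 and 2 were 2.06 and 1.42 against -0.78 and 1.06 in GFP-negative cells. In GFP-positive cells they were -0.61 and -2.30 against 0.27 and 0.91. The epithelium means went the other way in each group. In both groups replicates 1 and 3 thus had lower fibroblast and higher epithelium means than 2 and 4. Each row sets replicates 1 and 3 of one group against 2 and 4 of the other. Row and marker level cannot be told apart within a single group. The part of either marker set in the members' values was not tested. The difference between rows was not tested, and with 2 against 2 arrays 0 members passed the threshold in either row. With row as a block, Mcm10 was the 1 member called (adjusted p = 0.0431).

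**Figure D5:**
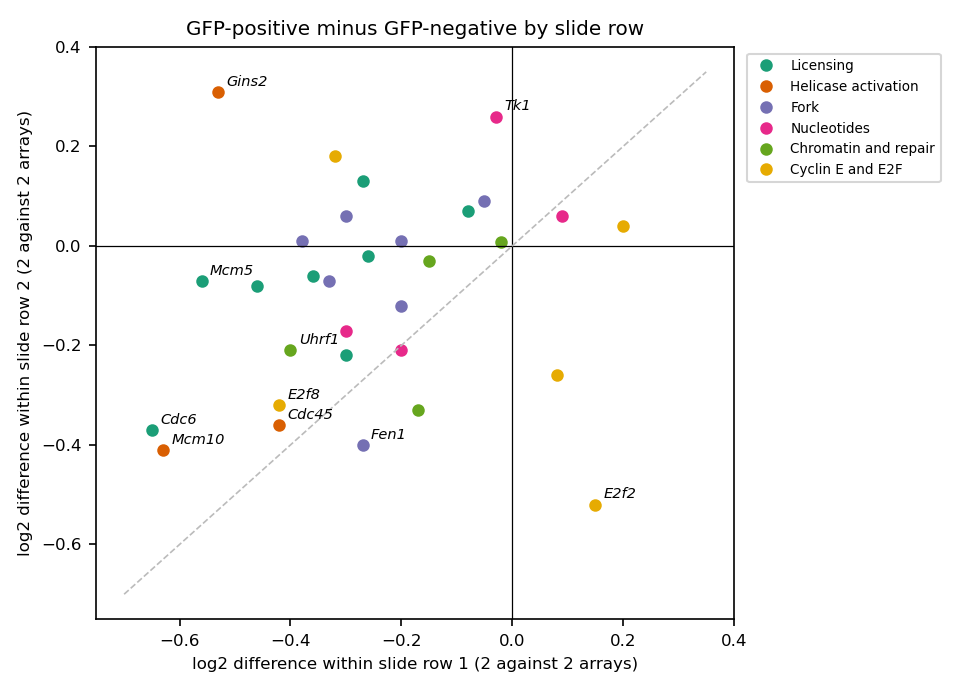
Log2 difference, GFP-positive minus GFP-negative, within slide row 1 (horizontal axis) and within slide row 2 (vertical axis), each from 2 against 2 arrays. Each point is a gene, coloured by role, and the dashed line marks equal differences. Mcm10, Cdc6, E2f8, Cdc45, Fen1 and Uhrf1 lie in the lower left, below 0 in both rows, as do other genes, and Gins2 and E2f2 lie on opposite sides.

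Other genes of the same processes, which are not among the 32, were counted in the same fit, where 0.741% of all features were called lower and 1.82% higher. At an unadjusted p under 0.05 the share of all features that were lower was 15.1%, and the median over all features was -0.06. Of 44 further replication genes (the origin recognition complex, other polymerase, RPA, clamp loader and fork protection genes), 0 fell and 1 rose, with 22 lower at an unadjusted p under 0.05 and a median of -0.20. With quantile normalization the median was -0.14, with 15 lower, against -0.03 and 10.7% of all features. The 1 that rose was Pold4, the smallest subunit of polymerase delta. It stood at 1.05, 1.31, 1.07 and 1.21 in GFP-negative and at 1.76, 1.78, 1.80 and 1.65 in GFP-positive cells, without overlap, and was higher by 0.59 ± 0.08 (adjusted p = 0.0124) and by 0.61 after quantile normalization.

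Of 40 further S phase and E2F target genes, 4 fell and 0 rose, with 19 lower at an unadjusted p under 0.05 (15.1% of all features were) and a median of -0.23 (-0.19 with quantile normalization). Nasp, a histone chaperone, stood at 5.53, 5.46, 5.57 and 5.57 against 4.98, 5.11, 5.03 and 4.99, and fell by 0.51 ± 0.07 (adjusted p = 0.0089). Mybl2, an activator of late S phase and G2 genes, fell by 0.54 ± 0.11 (adjusted p = 0.0478), and Exo1, an exonuclease of mismatch repair, by 0.50 ± 0.09 (adjusted p = 0.0309). With quantile normalization Nasp and Exo1 kept an adjusted p under 0.05 and Mybl2 had 0.0585. Of 38 mitosis genes 0 passed, with a median of -0.16 and 12 lower at an unadjusted p under 0.05, against 15.1% of all features. Of 12 genes of the replication stress response 0 passed, with 2 lower (16.7%, near that share), 1 higher and a median of -0.12.

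Upstream of E2F stand the RB and DREAM proteins, other E2F and DP factors, and the G1 cyclins, their kinases and the inhibitors of these. Of 28 such genes 2 rose and 0 fell, with 8 lower at an unadjusted p under 0.05 (15.1% of all features were) and a median of -0.09. Cdkn1a, which encodes the kinase inhibitor p21, stood at 3.33, 1.96, 2.52 and 2.65 in GFP-negative and at 4.98, 4.70, 5.12 and 4.53 in GFP-positive cells, and was higher by 2.21 ± 0.28 (adjusted p = 0.00747). Rb1, the retinoblastoma protein that binds E2F, stood at 0.20, 0.41, 0.09 and 0.44 against 1.30, 1.25, 1.34 and 1.36, and was higher by 1.03 ± 0.09 (adjusted p = 0.00176). Neither overlapped, and both kept an adjusted p under 0.05 with quantile normalization. Those differences are larger than that of any of the 31 replication genes, whose lowest and highest were -0.52 and 0.12.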

How the data were processed

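Each of the 8 files held 1 array's scanner output from Agilent Feature Extraction, named in the submitters' processing notes, version 10.7.3.1 with protocol GE1_107_Sep09 and probe positions on mm9 per the file headers. The deposited intensity values were the processed signal, background-corrected by that program. An alternative used the mean signal and median background instead. Per the labels, 20 ng of total RNA was labelled. Of 59305 non-control spots, 106 to 186 per array were left out as outliers. Log2 signal was set relative to each array's 75th percentile, and spots of one probe were averaged. A probe was kept if well above background on 4 or more of 8 arrays, 27590 in all, 41 of them members'. Their brightest probe stood for a gene. Accessions of 27509 probes (49.4%) matched RefSeq symbols of GRCm38.p6.

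The fractions were compared with limma 3.58.1 in R 4.3.3 (two-sided moderated test, no replicate block, Benjamini-Hochberg over 19709 features, threshold 0.05). Errors are standard errors of that fit, and intervals are 95%. The fit was tested on simulated data. Probes of one gene were fitted together with all kept probes. Alternatives changed normalization, background, filter, probe, slide row, variance model, replicate block or left out an array. The rule for named genes took all members, and up to 4 genes past the threshold from each comparison list, 1 of which is not reported here. Members and lists were chosen with earlier results of these data known. The number of arrays limits the precision.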

Additional observations from a re-analysis of the deposited data

Results flagged for a closer look

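In each group of 4 arrays, the highest and lowest array of every tested gene was set against the others by its gap over the group's range (Dixon's test at 95%). Of 62 groups 3 passed, and chance alone flags about 1 in 20. Lig1 in GFP-negative replicate 1 was at 5.42, below the others at 5.73 to 5.75. Fen1 in GFP-positive replicate 4 was at 5.36, below the others at 5.54 to 5.56. Ung in GFP-negative replicate 4 was at 6.39 and the others at 6.41, a gap that counts only because the group is so narrow.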

How the results depend on the processing

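The text's numbers of calls moved with most settings. Of 20 alternatives for each of 31 genes, 620 values in all, 536 kept their sign and their side of the threshold, 40 lost the call, 11 gained one and 33 changed sign, in 14 genes and in 0 called values. All features and members past the threshold, 505 and 3 as reported, were 788 and 4 with normexp background, 154 and 0 with no filter on dim probes (10 members lower at an unadjusted p under 0.05), 721 and 6 with probes above background on all arrays, 278 and 1 with slide row as a block, 1053 and 0 within row 1 (10 lower), 0 and 0 within row 2 (1016 features lower and 1130 higher at an unadjusted p under 0.05, and 4 members lower), 1449 and 6 with array weights, 1166 and 6 with a robust prior that follows intensity, 528 and 2 with the mean of probes, 419 and 1 with quantile normalization, and 526 and 1 with the percentile of detected probes. Leaving out 1 array gave 151 to 428 features and 0 to 2 members, with the fewest features without GFP-positive replicate 1 and 0 members (8 to 10 lower at an unadjusted p under 0.05) without GFP-negative replicate 2, 3 or 4 or GFP-positive replicate 1 or 3. The median of members, -0.18, was -0.07 with quantile normalization, -0.11 with the percentile of detected probes, -0.27 within row 1, -0.07 within row 2, and -0.20 to -0.15 when an array was left out. The median of their probes, -0.17, was -0.07, -0.10, -0.27, -0.07, and -0.21 to -0.12. The share of all features lower at an unadjusted p under 0.05 was 15.1% as reported, 14.4% within row 1 and 5.16% within row 2. For the fits with no filter on dim probes or without 1 array that share is not given here. Their counts of members lower are therefore not read as results about the members.

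With the replicate number as a block, 215 features and 0 members were called, with adjusted p-values (limma) of 0.0916 for Mcm10, 0.107 for Cdc6 and 0.145 for E2f8. At an unadjusted p under 0.05, 10 members were lower in that fit, a count given without the share of all features. Deviations of same-numbered arrays correlated at -0.03, 0.07, 0.02 and 0.18, so the numbers were not taken as pairs. 0 of the arrays correlated best with its own number. The highest values joined GFP-negative replicate 1 with GFP-positive replicate 3 (0.60) and GFP-negative 2 with GFP-positive 4 (0.65). Next came GFP-negative 3 with GFP-positive 1 (0.43) and GFP-negative 4 with GFP-positive 2 (0.34). Across the fractions, replicates 1 and 3 thus went together, and so did 2 and 4. What the arrays of such a set share was not tested, and no fit took the sets as a block.

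Signs changed with quantile normalization for Mcm4 (0.02), Mcm6 (0.09), Mcm7 (0.14), Prim1 (0.0078), Ung (0.15), E2f1 (0.0098) and Chaf1b (0.04), with the percentile of detected probes for Mcm6 (0.0086), Mcm7 (0.07), Ung (0.07) and E2f1 (0.0029), with normexp for Mcm7 (0.00073) and Ung (0.0086), with array weights for Ung (0.0078), within row 1 for Rfc2 (-0.05), Tk1 (-0.03), E2f2 (0.15) and E2f7 (0.08), and within row 2 for Mcm6 (0.13), Mcm7 (0.07), Gins2 (0.31), Rfc4 (0.0095), Prim1 (0.01), Ung (0.0078), E2f1 (0.18) and Lig1 (0.06). Leaving out an array gave -0.02 to 0.07 for Rfc2, -0.03 to 0.03 for Mcm7, -0.14 to 0.0083 for E2f1, -0.26 to 0.00038 for Gins2 and -0.02 to 0.02 for Ung. Mcm10 also lost its call with no filter on dim probes (adjusted p = 0.114). The cause of each change was not tested. Differences of this size are near the spread of 4 arrays, and the dimmest member probe tested, a Chaf1b probe, had an SE of 0.37.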
